A study of Mus musculus with 30 samples.

Results

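The mouse mitochondrial genome is a small circular DNA, and this report follows the transcripts it encodes in 8-cell embryos with and without the transcription factor YY1. The members were the 37 rows of the deposited table whose symbol starts with mt-, out of 49585 rows. They comprised 13 mRNAs, 2 ribosomal RNAs (rRNAs) and 22 transfer RNAs (tRNAs), and every one of the 37 passed the filter of a mean of at least 1 FPKM (fragments per gene, scaled for gene length and library depth). The rule used no measured value.

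Embryos of BDF1 x BDF1 matings, a cross of hybrid mice, were cultured in KSOM medium and taken at the 8-cell stage. Total RNA was sequenced from 2 libraries after a control knockdown and 2 after knockdown of Yy1, in which the siRNA was number 1 by the sample titles. The labels do not state how the siRNA was delivered, how many embryos a library pools, or whether replicates were collected separately, so a p-value here reflects library-to-library spread, part or all of which may be technical. The other 26 of the 30 samples in the series, MNase-seq and CUT&RUN libraries, were not used here.

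Both strands of mitochondrial DNA are transcribed as long precursors that run through many genes. Most mRNAs and both rRNAs are flanked by tRNAs, and nuclear-encoded RNases cut the tRNAs out, which frees the mRNAs and rRNAs between them. The 13 mRNAs encode core subunits of the respiratory chain and of ATP synthase, the rRNAs and tRNAs serve the mitochondrial ribosome, and all factors that transcribe and process them come from nuclear genes. Cleavage-stage embryos carry mitochondria inherited from the oocyte. YY1 is a zinc finger protein known, in muscle, to act on nuclear genes for mitochondrial proteins.

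One strand, called the majority strand below, codes for 12 of the mRNAs, both rRNAs and 14 tRNAs. The minority strand codes for mt-Nd6 and 8 tRNAs. The files gave no strand setting for the counting, so reads of mt-Nd6 or of a minority-strand tRNA could not be told apart from opposite-strand reads over the same bases. All members lie on the mitochondrial chromosome (MT, GRCm38.p6, the assembly behind mm10) and have no introns.

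Library totals recovered from the table were 34429515 and 31405476 fragments for the control and 34074291 and 29302489 for the Yy1 knockdown. Yy1 itself measured 77.7 and 71.2 FPKM in controls and 5.89 and 7.98 FPKM after its knockdown, so the groups followed their labels. Its log2 fold change was -3.26 (SE 0.19), yet its limma adjusted p of 0.0556 missed the threshold of 0.05. Of 10 embryo markers 9 exceeded the filter, and Sox2 stayed at 0.186 FPKM or less. Their sum was 2774 to 2976 FPKM in control and 2800 to 2978 FPKM in Yy1 knockdown libraries. Dppa3 alone, at 1985 to 2128 FPKM, made up most of it. Pou5f1 stood at 178 to 214 FPKM, while Gata3 and Fgf4 stood at 5.02 FPKM or less. Of 12 cumulus and granulosa cell markers 1, the receptor gene Amhr2, exceeded the filter, and 4 were at 0 in all libraries. Their sum was 4.95 to 5.51 FPKM in control and 7.78 to 7.96 FPKM in Yy1 knockdown libraries, and its part in the results was not tested. The 8 sperm and 7 blood cell markers all fell below the filter, with sums of at most 1.75 FPKM in any library.

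Mitochondrial rows held 8.97% and 6.88% of all fragments in control replicates 1 and 2, and 6.67% and 6.5% in Yy1 knockdown replicates 1 and 2. Control replicate 1 stood above the other 3 libraries, which lay close together. Counting error was small beside this spread, with a 95% Wilson interval of 8.965 to 8.984% for the highest library and 6.490 to 6.507% for the lowest. Intervals here and below cover counting error only, since PCR copies are not independent molecules. The group means were 7.93% ± 1.48 and 6.58% ± 0.118 (SD, n = 2 each), a log2 difference of -0.26. In bulk libraries less mitochondrial RNA per cell and more of all other RNA cannot be told apart. Both knockdown libraries were below both controls, but an exact permutation test of 2 libraries against 2 cannot give a two-sided p below 0.333, which is the value found (n = 2 each). Without control replicate 1 the log2 difference was -0.065.

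**Figure D1:**
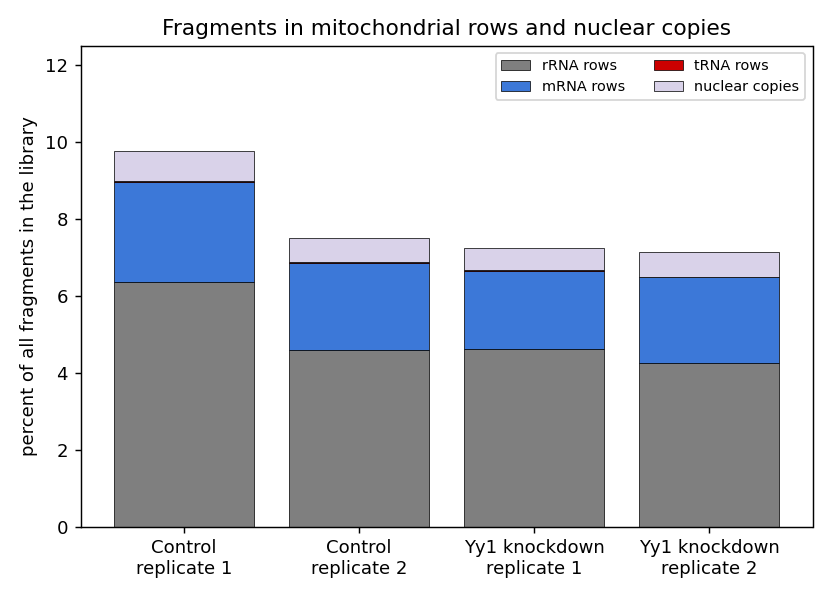
Stacked bars give the percent of each library's fragments that fell in the mitochondrial rRNA, mRNA and tRNA rows and in 8 nuclear pseudogene copies; each bar is 1 library. Control replicate 1 reaches 9.76% with the copies included and the other 3 libraries 7.16 to 7.52%, and the tRNA part is too thin to see.

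By class, the rRNAs took most of the mitochondrial fragments. In control libraries the 2 rRNAs held 6.35% and 4.6% of all fragments, and in Yy1 knockdown libraries 4.62% and 4.26%. The 13 mRNAs held 2.61% and 2.26% in control and 2.03% and 2.22% in Yy1 knockdown libraries. The 22 tRNAs held 0.0151% and 0.0191% against 0.02% and 0.0157%. The excess of control replicate 1 was thus mainly rRNA in percentage points. Only the mRNA class had both knockdown libraries below both controls, but its contrast with rRNA rested on near ties. Control replicate 2 and the higher knockdown library stood at 2.26% and 2.22% for mRNA and at 4.6% and 4.62% for rRNA.

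Taken as a share of the mitochondrial fragments alone, the classes did not separate the groups. The rRNA share was 70.8% and 66.9% in control libraries and 69.3% and 65.5% in Yy1 knockdown libraries (exact p = 0.667, n = 2 each). The tRNA share was 0.169% and 0.278% in control and 0.3% and 0.242% in Yy1 knockdown libraries (exact p = 0.667, n = 2 each). Here control replicate 1 was the low library, and without it the log2 difference in tRNA share went from 0.32 to -0.044. These were 2 of 10 library-level quantities compared, and after Benjamini-Hochberg adjustment over the 10 all adjusted p were 0.741 or 1, with no quantity able to reach a raw p under 0.333.

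The 2 rRNAs were the most abundant members per length. mt-Rnr1, the RNA of the small mitoribosomal subunit (MT 70 to 1024), was listed at 22050 and 17003 FPKM in control and at 16339 and 15873 FPKM in Yy1 knockdown libraries. mt-Rnr2, the RNA of the large subunit (MT 1094 to 2675), was listed at 26831 and 18842 FPKM in control and at 19317 and 17343 FPKM in Yy1 knockdown libraries. For mt-Rnr1 both knockdown libraries lay below both controls, while for mt-Rnr2 the groups overlapped. Their log2 fold changes were -0.27 (SE 0.20) and -0.30 (SE 0.23), with limma adjusted p of 0.713 and 0.725. Without control replicate 1 these shrank to -0.078 and -0.042.

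The ratio of mt-Rnr2 to mt-Rnr1 was 1.22 and 1.11 in control and 1.18 and 1.09 in Yy1 knockdown libraries. It was higher in replicate 1 of either group, and the difference between groups was smaller than that between replicates (exact p = 0.667, n = 2 each). Mean rRNA FPKM exceeded mean mRNA FPKM by 11.4-fold and 9.73-fold in control and by 10.7-fold and 9.15-fold in Yy1 knockdown libraries. The sources used here do not say whether rRNA was depleted during library making, so these ratios need not be those of the cells. Among the nuclear rRNA rows listed for comparison, Gm26917, a noncoding row that often collects ribosomal RNA reads, stood at 643 and 3902 FPKM in control and at 1178 and 2943 FPKM in Yy1 knockdown libraries. It was thus low in replicate 1 of either group, where the share of mitochondrial rRNA was higher, and the link between them was not tested.

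None of the 37 members passed the test. With limma at an adjusted p of 0.05, 0 of 37 members were called, against 0% of all 12120 rows tested, so that even Yy1 itself was not called. No member had an unadjusted limma p under 0.05, while 4.69% of all rows had one on the lower side and 4.22% on the higher side. With limma-voom on recovered fragments 0 members were called, and 2 members, mt-Rnr1 and mt-Nd6, had an unadjusted p under 0.05, both on the lower side. In that fit 695 of all 12118 rows had such a p on the lower side and 569 on the higher side. The 2 of 37 members were thus near the share of all rows. By log2 fold change 27 members were lower and 10 higher, against 46.8% of all rows lower. In 9 members both knockdown libraries were below both controls and in 0 both were above, against 18.9% and 21.8% of all rows.

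**Figure D2:**
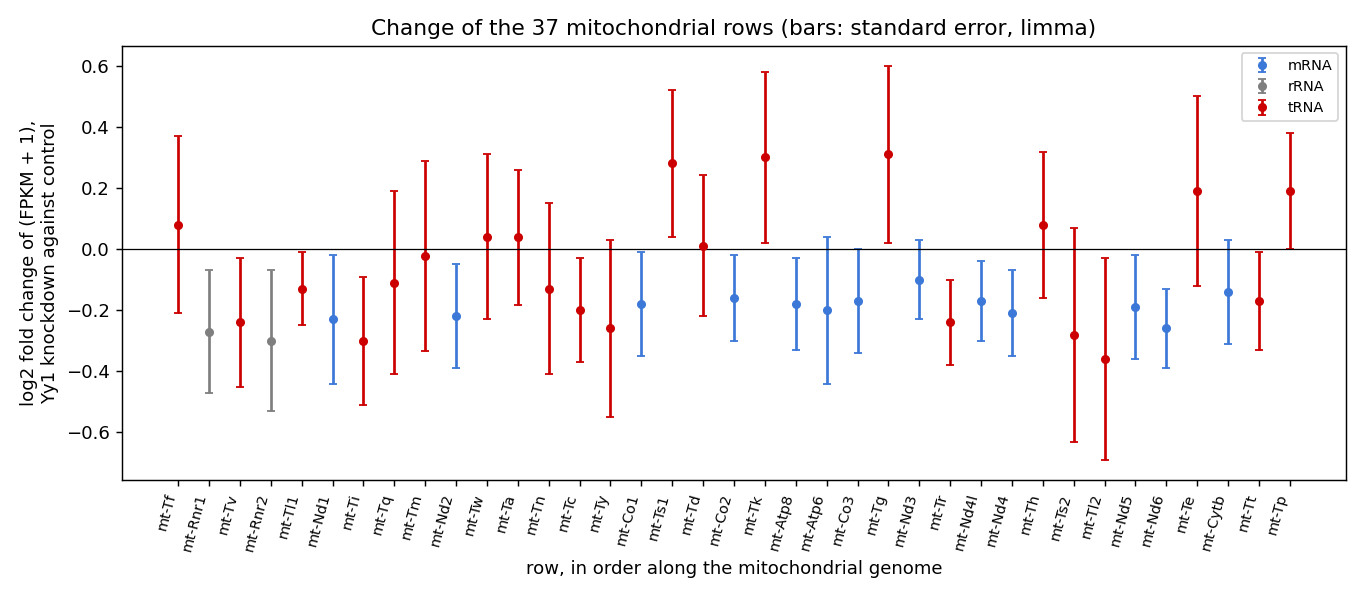
Points give the log2 fold change of FPKM + 1 for each of the 37 rows in genome order, bars the limma standard error, and colours the class. All 13 mRNAs and both rRNAs lie below 0 between -0.10 and -0.30 (8 of the mRNAs lie above 0 once libraries are scaled to the summed mRNAs), and the 22 tRNAs scatter from -0.36 to 0.31.

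The direction among the members followed the class. All 13 mRNAs had a lower mean after Yy1 knockdown relative to all fragments, though 8 of them had a higher one once libraries were scaled to the 13 mRNAs themselves. They had a median log2 fold change of -0.18 and a range from -0.26 to -0.10, beside a median of 0.0242 over all rows tested. In 6 of the 13 both knockdown libraries lay below both controls, against 18.9% of all rows. For 1 of the 6, mt-Co2, the gap was only that between 1453 and 1452 FPKM. The mRNAs are cut from shared precursors, so the 13 are not independent measurements. The median was -0.067 without control replicate 1, where 3 of the 13, mt-Nd1, mt-Atp6 and mt-Co3, had positive values. It was -0.26 without control replicate 2.

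Complex I, the NADH dehydrogenase, takes 7 of its subunits from mitochondrial mRNAs. mt-Nd6, the minority-strand mRNA (MT 13552 to 14070), was listed at 2116 and 2010 FPKM in control and at 1712 and 1729 FPKM in Yy1 knockdown libraries. The groups did not overlap and replicates lay close together, and mt-Nd6 had the smallest unadjusted p of the 37. Its mean was 2063 ± 75.6 against 1720 ± 11.9 FPKM (SD, n = 2 each), 1.2-fold lower, with a log2 fold change of -0.26 (SE 0.13) and a limma adjusted p of 0.617. Between -0.22 and -0.30 whichever library was left out, its value moved less than that of either rRNA.

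mt-Nd4 (MT 10167 to 11544), a membrane subunit of the proton-pumping arm, was listed at 1839 and 1911 FPKM in control and at 1507 and 1755 FPKM in Yy1 knockdown libraries. mt-Nd4l (MT 9877 to 10173), which shares a bicistronic mRNA with mt-Nd4, was listed at 1671 and 1647 against 1400 and 1555 FPKM. mt-Nd3 (MT 9459 to 9806), a small membrane subunit, was listed at 1013 and 950 against 899 and 930 FPKM. In these 3 both knockdown libraries were below both controls, and their log2 fold changes were -0.21 (SE 0.14), -0.17 (SE 0.13) and -0.10 (SE 0.13), with limma adjusted p of 0.702, 0.734 and 0.837.

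The other 3 subunits of complex I overlapped between groups. mt-Nd1 (MT 2751 to 3707), which helps form the quinone site, was listed at 3345 and 2348 FPKM in control and at 2560 and 2237 FPKM in Yy1 knockdown libraries. mt-Nd2 (MT 3914 to 4951), a membrane subunit, was listed at 2423 and 1972 against 2006 and 1766 FPKM. For both of these, replicate 1 was the higher library in either group. mt-Nd5 (MT 11742 to 13565), the outermost pumping subunit, was listed at 1958 and 2213 against 1630 and 2037 FPKM, with replicate 1 the lower in either group. Their limma adjusted p were 0.772, 0.725 and 0.758.

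Complex III takes 1 subunit from the mitochondrial genome, cytochrome b. Its mRNA mt-Cytb (MT 14145 to 15288) was the most abundant of the 13 by mean, at 3669 and 3108 FPKM in control and 2831 and 3304 FPKM in Yy1 knockdown libraries. The groups overlapped, with a log2 fold change of -0.14 (SE 0.17) and a limma adjusted p of 0.822.

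Complex IV, cytochrome c oxidase, has its 3 core subunits encoded here. mt-Co1 (MT 5328 to 6872), the catalytic subunit, was listed at 2355 and 1849 FPKM in control and at 1737 and 1945 FPKM in Yy1 knockdown libraries. mt-Co2 (MT 7013 to 7696), which receives electrons from cytochrome c, was listed at 1573 and 1453 against 1263 and 1452 FPKM. The lower control and the higher knockdown library of mt-Co2 were nearly equal, at 1453 and 1452 FPKM. mt-Co3 (MT 8607 to 9390) was the least abundant of the 13 mRNAs by mean, as listed without nuclear copies, at 743 and 575 against 566 and 594 FPKM, with overlapping groups. Limma adjusted p were 0.778, 0.769 and 0.783.

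Complex V, the ATP synthase, takes a pair of membrane subunits from 1 mRNA with overlapping reading frames. mt-Atp8 (MT 7766 to 7969) was listed at 1532 and 1555 FPKM in control and at 1226 and 1510 FPKM in Yy1 knockdown libraries, with both knockdown libraries below both controls. mt-Atp6 (MT 7927 to 8607) was listed at 3692 and 2363 against 2368 and 2779 FPKM, with overlapping groups. Limma adjusted p were 0.75 and 0.829. Although the frames sit on the same mRNA, the ratio of mt-Atp8 to mt-Atp6 was 0.415 and 0.658 in control and 0.518 and 0.543 in Yy1 knockdown libraries. For the other pair on a shared mRNA, mt-Nd4l over mt-Nd4, the ratio was 0.909 and 0.862 against 0.929 and 0.886, nearer to 1 and steadier between libraries in the rows as listed. With the paired nuclear copies described below added, mt-Atp8 over mt-Atp6 was 0.183 and 0.295 against 0.23 and 0.246. The ratio of mt-Nd4l to mt-Nd4 then was 1.78 and 1.68 against 1.81 and 1.72. No copy was paired with mt-Atp8 or mt-Nd4, so these ratios are not corrected for all copies. Gm28439, which tracked mt-Nd4 most closely, was added to no row. The sources used here do not say how fragments over bases shared by 2 genes were counted.

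**Figure D3:**
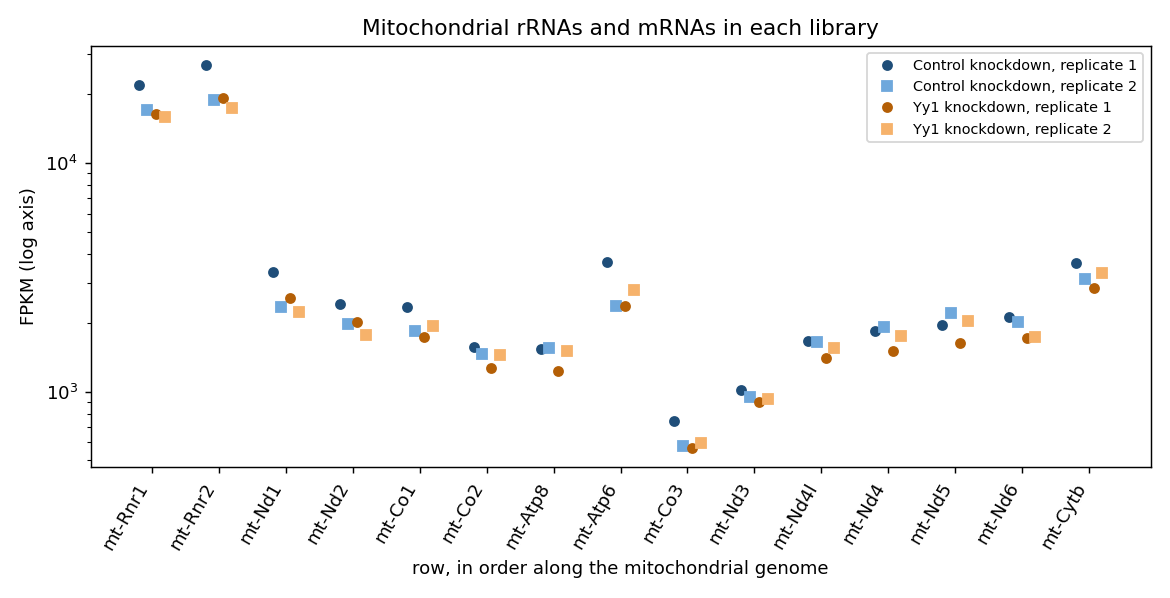
Points give FPKM on a log axis for the rRNAs and mRNAs in genome order, with 1 point for each of the 4 libraries. Both rRNAs lie between 15873 and 26831 FPKM and the mRNAs between 566 and 3692 FPKM, and control replicate 1 is the highest point for 10 of the 13 mRNAs and both rRNAs.

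Among the mRNAs the highest level exceeded the lowest 4.97-fold and 5.41-fold in control and 5.01-fold and 5.56-fold in Yy1 knockdown libraries, so the spread of levels was alike in all 4. By mean over the libraries mt-Cytb came first, then mt-Atp6, mt-Nd1, mt-Nd2, mt-Co1, mt-Nd5, mt-Nd6, mt-Nd4, mt-Nd4l, mt-Atp8, mt-Co2, mt-Nd3 and mt-Co3. Of the 12 neighbouring pairs in that order, 5 held in all 4 libraries: mt-Nd1 over mt-Nd2, mt-Nd4 over mt-Nd4l, mt-Nd4l over mt-Atp8, mt-Co2 over mt-Nd3 and mt-Nd3 over mt-Co3. The other neighbours changed places in at least 1 library.

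Grouped by complex, the mRNAs kept nearly the same proportions in both groups. Subunits of complex I made up 51.4% and 54.5% of the summed mRNA FPKM in control and 54% and 50.9% in Yy1 knockdown libraries. Complex IV made up 16.7% and 16.2% against 16.4% and 16.9%, complex V 18.7% and 16.4% against 16.6% and 18.2%, and complex III 13.1% and 13% against 13% and 14%. All 4 shares overlapped between groups, with log2 differences from -0.014 for complex I to 0.05 for complex III. The exact p was 0.667 for complexes I, III and IV and 1 for complex V (n = 2 each).

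Scaling each library to the same summed FPKM over the 13 mRNAs asked whether single mRNAs moved apart from the rest. In that fit 8 mRNAs had log2 values above 0 and 5 below by the group values, all between -0.069 for mt-Nd6 and 0.092 for mt-Nd3, and limma called 0 of the 37 members. This scaling moved the median of all 12120 rows from 0.0242 to 0.187.

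Strand did not separate the groups either. The ratio of mt-Nd6 to the mean of the 12 majority-strand mRNAs was 0.984 and 1.1 in control and 1.03 and 0.949 in Yy1 knockdown libraries (exact p = 0.667, n = 2 each). Minority-strand mt-Nd6 was therefore listed at about the mean level of the majority-strand mRNAs, in the rows as listed without nuclear copies. It has no paired copy, and with only the paired copies described below added its rank by mean among the 13 mRNAs went from 7 to 9. Among tRNAs the minority-strand rows took 42.8% and 39.8% of summed tRNA FPKM in control and 44.1% and 39.3% in Yy1 knockdown libraries. Their share was higher in replicate 1 of either group. By log2 fold change 4 of the 8 minority-strand tRNAs and 8 of the 14 majority-strand tRNAs were lower, with medians of -0.03 and -0.08.

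Position along the majority strand set replicates apart more than knockdown did. The mean of mt-Nd1, mt-Nd2 and mt-Co1, early in the direction of transcription, over that of mt-Nd4, mt-Nd5 and mt-Cytb, near its end, was 1.09 and 0.853 in control libraries. It was 1.06 and 0.838 in Yy1 knockdown libraries. Replicate 1 was the higher library in either group by about the same step, while the log2 difference between groups was -0.034 (exact p = 0.667, n = 2 each). The labels do not say whether libraries with the same number were handled together.

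Reads of the tRNA rows were few, 4605 to 6818 fragments per library over all 22. The rows are 59 to 75 bases long, and fragments in them may come from precursors as well as from free tRNAs, which the table cannot tell apart. The 2 most abundant, mt-Tp and mt-Tg, held 39% and 42.5% of the tRNA fragments in control and 45.5% and 46.6% in Yy1 knockdown libraries, a description of 2 rows picked for their abundance.

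mt-Tp, the tRNA for proline (MT 15356 to 15422, minority strand), which lies next to the noncoding control region, was listed at 538 and 590 FPKM in control and at 756 and 545 FPKM in Yy1 knockdown libraries. mt-Tg, for glycine (MT 9391 to 9458), was listed at 338 and 612 against 593 and 541 FPKM. Both had overlapping groups, and in mt-Tg control replicate 1 alone was low. mt-Ty, for tyrosine (MT 5260 to 5326, minority strand), was listed at 186 and 189 against 213 and 115 FPKM, so its knockdown libraries lay on either side of the controls.

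mt-Tl1, a tRNA for leucine (MT 2676 to 2750) between mt-Rnr2 and mt-Nd1, was listed at 139 and 147 FPKM in control and at 128 and 133 FPKM in Yy1 knockdown libraries. mt-Tr, for arginine (MT 9808 to 9875), was listed at 149 and 158 against 140 and 121 FPKM. In these 2 tRNAs alone among the 22 both knockdown libraries lay below both controls, a smaller share than the 18.9% of all rows. Their log2 fold changes were -0.13 (SE 0.12) and -0.24 (SE 0.14), with limma adjusted p of 0.781 and 0.664. mt-Tv, for valine (MT 1025 to 1093) between the rRNAs, was listed at 126 and 155 against 140 and 99.4 FPKM, with overlapping groups. Its rRNA neighbours stood at 15873 FPKM or more.

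The other 16 tRNA rows had 4 to 350 fragments per library and 2.31 to 153 FPKM. By log2 fold change 8 were lower and 8 higher, from -0.36 to 0.3. The rarest, mt-Ts2 for serine, rested on 9 and 9 fragments in control and 11 and 4 in Yy1 knockdown libraries. The exact Poisson interval for 4 fragments runs from 1.09 to 10.2, so a difference in mt-Ts2 was not detectable at this depth. Over all 22 tRNAs 12 were lower and 10 higher, with a median of -0.06, and limma adjusted p ran from 0.664 to 0.992.

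Within groups, tRNAs and mRNAs ranked the libraries in opposite order. Control replicate 1 was above control replicate 2 in 10 of 13 mRNAs and both rRNAs but in 3 of 22 tRNAs. Yy1 knockdown replicate 1 was above replicate 2 in 2 of 13 mRNAs but in 17 of 22 tRNAs and both rRNAs. Over the 12083 nuclear rows tested the same shares were 43.6% and 55.1%. So the libraries poorer in mRNA, control replicate 2 and Yy1 knockdown replicate 1, were the richer ones in tRNA. For tRNAs the median absolute log2 ratio between replicates was 0.48 in control and 0.46 in Yy1 knockdown libraries, larger than the median absolute log2 fold change between groups, 0.19. For mRNAs these were 0.18 and 0.19, against 0.18 between groups.

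**Figure D4:**
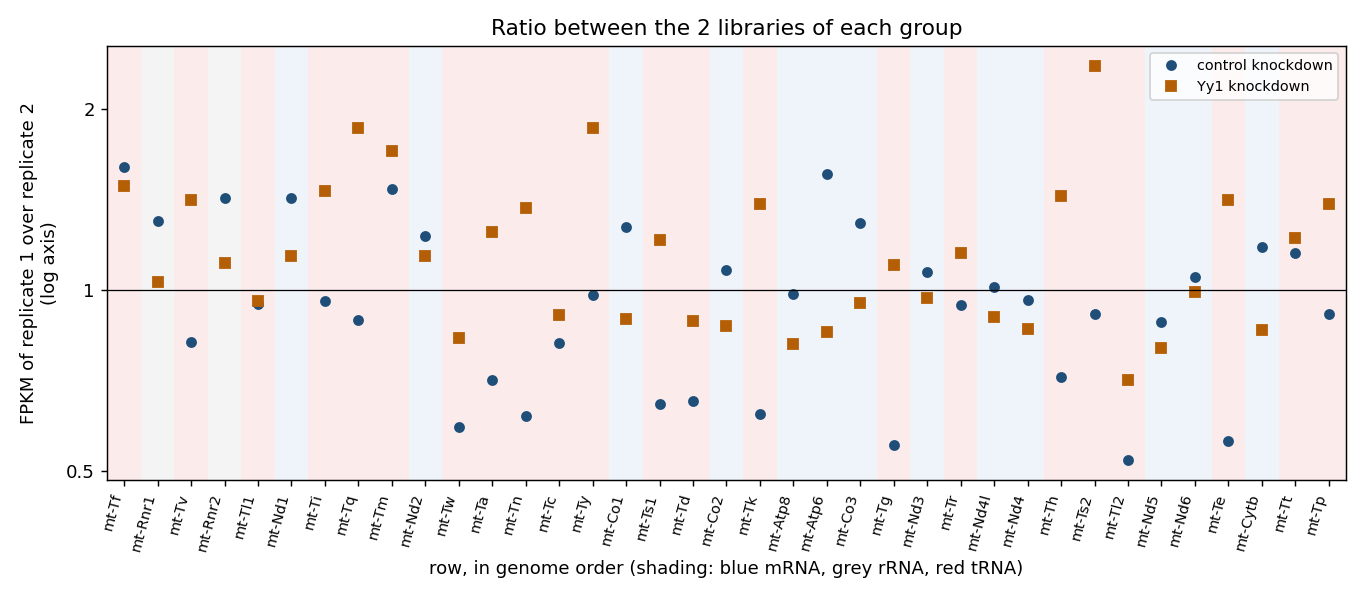
Each point gives FPKM of replicate 1 over replicate 2 on a log axis, circles for the control and squares for the Yy1 knockdown, with rows in genome order and shading by class. In the control the mRNAs and rRNAs lie mostly above 1 and the tRNAs mostly below, and in the Yy1 knockdown the order of mRNAs and tRNAs is the other way.

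Nuclear DNA holds copies of mitochondrial sequence, and several are annotated as pseudogenes with rows of their own in the table. All 8 that were listed for this purpose had rows, and 7 of them stood at levels of the mitochondrial mRNAs themselves. Gm10925 (chromosome 1, 24613971 to 24614651), which RefSeq also lists under the synonym mt-Atp6, was listed at 4686 and 2920 FPKM in control and at 2966 and 3367 FPKM in Yy1 knockdown libraries. It exceeded mt-Atp6 in every library, by 1.21-fold to 1.27-fold. The eighth, Gm10221 on chromosome 5, was lower, at 49.9 and 57.5 against 70.0 and 56.4 FPKM.

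Of the 7, 4 tracked 1 mitochondrial mRNA across the libraries and had a length, recovered from the steps of their FPKM values, up to 3 bases below that of the mRNA. By RefSeq coordinates Gm10925 (681 bases) and Gm10222 (297 bases) are as long as the mRNAs they tracked, where the recovered lengths were 678 and 294 bases. Besides Gm10925 with mt-Atp6, these were Gm28661 with mt-Co2, Gm28437 with mt-Co3 and Gm10222 (chromosome 1, 24612404 to 24612700) with mt-Nd4l. The ratio of copy to mitochondrial row was 1.09 to 1.12 for mt-Co2, 1.07 to 1.08 for mt-Co3 and 0.956 to 0.968 for mt-Nd4l. Of the fragments in each pair the copy held 54.7 to 55.8% for mt-Atp6, 52.1 to 52.6% for mt-Co2, 51.7 to 51.9% for mt-Co3 and 48.6 to 48.9% for mt-Nd4l. Gm28438, at 1187 to 1535 FPKM, had a recovered length 3 bases below that of mt-Nd3 but tracked mt-Co3 most closely, so it was paired with neither. Gm29216, at 1295 to 1643 FPKM, and Gm28439, at 1031 to 1302 FPKM, matched no mRNA in recovered length. Across the libraries they tracked mt-Co2 and mt-Nd4 most closely. The coefficient of variation (SD over mean) of their ratios to these was 2.09% and 2.15%, beside 1.97% for Gm10925 with mt-Atp6. The sources used here do not say how reads that fit several places were counted, and the part of such reads in these levels was not tested.

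**Figure D5:**
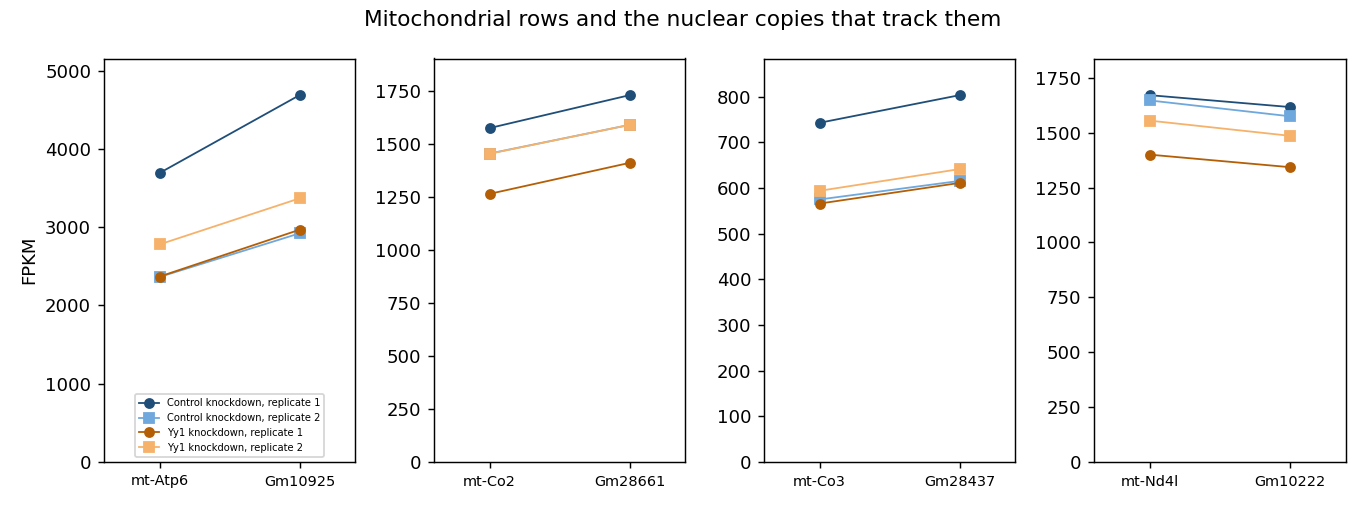
Each panel joins the FPKM of a mitochondrial row to that of the nuclear pseudogene paired with it, with 1 line for each library and the axis starting at 0. The lines run nearly level in 3 panels and upward from mt-Atp6 to Gm10925, and the order of the libraries is kept from row to copy apart from near ties.

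Fragments listed under the 8 copies amounted to 0.787% and 0.634% of the library in control and 0.584% and 0.657% in Yy1 knockdown libraries. That equalled 28.1 to 30.2% of the fragments of the 13 mitochondrial mRNAs. The comparison between groups hardly depended on them, since the log2 difference in the mitochondrial share was -0.26 without and -0.25 with the copies. The order of levels did. With the paired copies added, the mean over the 4 libraries went from 2800 to 6270 FPKM for mt-Atp6, which then came first, from 1435 to 3007 FPKM for mt-Co2 and from 1568 to 3058 FPKM for mt-Nd4l. For mt-Co3 it went from 619 to 1286 FPKM, which left mt-Nd3 as the lowest under this pairing. Gm28438, near mt-Nd3 in recovered length and at 1187 to 1535 FPKM, was added to no row. The share of complex V in mRNA FPKM went from 16.4 to 18.7% to 22.3 to 26.9%, and that of complex I from 50.9 to 54.5% to 43.5 to 47.7%. The order of levels and these shares leave out the unpaired Gm28438, Gm29216, Gm28439 and Gm10221, and so depend on the pairing rule.

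The nuclear genes that transcribe mitochondrial DNA had a median log2 fold change of 0.076, beside 0.0242 over all rows tested. Those that process its RNA were split between both directions, and no gene was called in either list. Of 11 listed genes for mitochondrial DNA transcription 8 exceeded the filter, 1 lower and 7 higher by log2 fold change, against 46.8% of all rows lower. Limma called none of them (0 with an unadjusted p under 0.05). Tfam, the factor that packages mitochondrial DNA and opens its promoters, stood at 4.18 and 3.34 FPKM in control and at 4.95 and 5.67 FPKM in Yy1 knockdown libraries (limma adjusted p = 0.624). Polrmt, the mitochondrial RNA polymerase, stood at 33.6 and 29.6 against 31.0 and 21.3 FPKM (limma adjusted p = 0.719). Tfam lay above both controls in both knockdown libraries, while the Polrmt groups overlapped.

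Of 26 listed genes for mitochondrial RNA processing and stability 23 exceeded the filter, 11 lower and 12 higher, and limma called none. An unadjusted limma p under 0.05 was found for 3 of the lower and 1 of the higher, beside 4.69% and 4.22% of all rows. Rpusd4, a pseudouridine synthase that acts on mt-Rnr2, stood at 3.74 and 3.68 FPKM in control and at 1.25 and 0.928 FPKM in Yy1 knockdown libraries (limma adjusted p = 0.462). Ptcd2, a pentatricopeptide repeat protein linked to mt-Cytb RNA, stood at 12.8 and 11.1 against 7.62 and 7.99 FPKM (limma adjusted p = 0.53). Elac2, the RNase Z that cuts tRNA 3' ends, stood at 22.1 and 20.9 against 28.0 and 33.7 FPKM (limma adjusted p = 0.532). Pnpt1, the polynucleotide phosphorylase of the mitochondrial degradosome, stood at 3.95 and 2.3 against 0.518 and 1.59 FPKM (limma adjusted p = 0.541). These 4 were picked by smallest p. Over the 23 genes both knockdown libraries were below both controls in 5 and above both in 4, near the 18.9% and 21.8% of all rows.

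Of 13 listed genes for replication and upkeep of mitochondrial DNA 10 exceeded the filter, 3 lower and 7 higher, and limma called none. An unadjusted limma p under 0.05 was found for 1 gene, on the higher side, where 4.22% of all rows had one. That was Top1mt, the mitochondrial topoisomerase, at 5.1 and 4.53 FPKM in control and 8.82 and 6.78 FPKM in Yy1 knockdown libraries (limma adjusted p = 0.532).

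The nuclear partners of the same complexes spread more widely than the mitochondrial subunits, which are fewer and are cut from shared precursors. Of 36 nuclear complex I subunits 24 were lower and 12 higher, with a median of -0.09 beside -0.21 for the 7 mitochondrial ones, with unadjusted p under 0.05 in 8 of the lower and 1 of the higher, beside 4.69% and 4.22% of all rows. Ndufs4, an accessory subunit near the electron entry site, stood at 9.35 and 9.84 FPKM in control and at 2.56 and 3.14 FPKM in Yy1 knockdown libraries, a log2 fold change of -1.46 (SE 0.19, limma adjusted p = 0.237). Over the 36 the values ran from -2.05 for Ndufa5 to 0.40 for Ndufs1. Those of the 7 mitochondrial subunits ran from -0.26 to -0.10, at far higher FPKM, so the 2 ranges are not a like comparison. Of 9 nuclear complex III subunits 7 were lower (median -0.22), of 11 in complex IV 7 (median -0.12) and of 18 in complex V 11 (median -0.07). The mitochondrial subunits of these complexes had medians of -0.14, -0.17 and -0.19. Limma called none of these 74 nuclear subunits, of which 7 more, all lower, in complexes III to V had an unadjusted p under 0.05. Whether the mitochondrial and nuclear lists differ was not tested.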

How the data were processed

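RNA of 8-cell embryos was measured in 4 libraries, 2 per group. The table holds FPKM as deposited by the authors, per the labels 1 column per library. A stranded SMART-Seq kit was used, per the labels' protocols. The submitters' processing notes name mm10, featureCounts and HISAT2 2.2.1 among other tools, without saying which assay used them. The sources used here give no annotation, no strand setting and no rule for multi-mapped reads.

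Members and gene lists were chosen with earlier results of these data known. Start, end and length came from RefSeq's GRCm38.p6 table, which matched all 37 members by name, and class, strand and complex from textbook knowledge. Each library's total was the smallest number for which FPKM times length gave whole fragments in every member; all 148 values came out whole within 0.01 fragments. For other rows the smallest whole length was used (12118 of 12120 rows).

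Rows with a mean of at least 1 FPKM were fitted on log2(FPKM + 1) with limma 3.58.1 in R 4.3.3, with group alone, a mean-variance trend and Benjamini-Hochberg adjustment over all rows at a threshold of 0.05. On this scale the change of low rows is understated. Library-level quantities were compared by two-sided exact permutation tests. The fit and the recovery of totals were tested on simulated data. All mRNAs and rRNAs are named, with the 6 tRNAs that had the most fragments, all listed nuclear copies, and up to 4 genes per other list by smallest p. Within each group neither library repeated the other: replicates differed by a mean chi-square of 3047 per member in control and 365 in Yy1 knockdown, far above sampling noise. By class the mean ran from 15.1 for tRNAs to 46188 for rRNAs in control, and from 11.4 to 2740 in Yy1 knockdown. Libraries of different groups were not compared in this way. Sequences of the mitochondrial genome were not used here.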

Additional observations from a re-analysis of the deposited data

How the results depend on the processing

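The count of called members was 0 under all 14 alternatives run, and the median of the 13 mRNAs stayed between -0.18 and -0.20 with a pseudocount of 0.1, without a filter, with the filter raised to 5 FPKM, with scaling by median ratios, a total without mitochondrial rRNA, limma-voom, no trend, a replicate block, or the paired nuclear copies added (chosen after seeing the data). Scaled to the 13 mRNAs it was 0.0099, where the values of mt-Co1 (0.0099), mt-Co2 (0.034), mt-Atp8 (0.011), mt-Co3 (0.02), mt-Nd3 (0.092), mt-Nd4l (0.024), mt-Nd5 (0.00052) and mt-Cytb (0.05) turned positive, as this scaling is built to centre them. Over all rows limma called 0; it called 4 with a filter of 5 FPKM, where fewer rows are tested, 7 scaled to the 13 mRNAs and 13 with limma-voom (the cause was not tested for the last 2).

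Leaving out each library in turn, the median of the 13 mRNAs ran from -0.26 to -0.067 and the log2 difference in mitochondrial share from -0.45 to -0.065. Ranges that cross 0 were -0.071 to 0.011 for the rRNA share, -0.044 to 0.68 for the tRNA share, -0.098 to 0.037 for mt-Rnr2 over mt-Rnr1, -0.15 to 0.0051 for mt-Nd6 over the other mRNAs, -0.21 to 0.14 for early over late mRNAs, and -0.057 to 0.028, -0.0014 to 0.10, -0.0046 to 0.043 and -0.11 to 0.085 for complexes I, III, IV and V. For single mRNAs such ranges were -0.48 to 0.027 for mt-Nd1, -0.53 to 0.12 for mt-Atp6 and -0.36 to 0.013 for mt-Co3, all positive only without control replicate 1. Fits with 1 library in a group take its spread from the other group.

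Replicate numbers are not said to pair libraries. Deviations of same-numbered libraries correlated at 0.0994 over all rows, -0.0229 over the 37 members and 0.543 over their mRNAs and rRNAs. With the replicate block the log2 difference in mitochondrial share was -0.26, the number of rows called 0, and no direction changed. In the other unit (FPKM for shares, fragments for ratios) no direction changed. With 2 libraries a group, differences as small as those here are at the limit of what can be told from replicate spread.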
